A study of Arabidopsis thaliana with 21 samples.

Results

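The RNA levels of 10 genes that report on salicylic acid signalling were followed in 14-day-old Arabidopsis thaliana seedlings carrying mutant alleles of ASIL1 and ASIL2, which encode trihelix transcription factors. The genes were picked by locus: PR1 (AT2G14610), PR2 (AT3G57260), PR5 (AT1G75040), NIMIN1 (AT1G02450), NIMIN2 (AT3G25882), WRKY38 (AT5G22570), WRKY54 (AT2G40750), WRKY62 (AT5G01900), WRKY70 (AT3G56400) and PCC1 (AT3G22231). They are 10 of the 24100 loci with a count in any library, and all 10 were among the 19589 loci tested after a filter on low counts. The 21 RNA-seq libraries form 7 groups of 3. The groups are wild-type Col-0, wild-type Ler, asil1-1 in Col-0, asil2-1 in Col-0, the double mutant asil1-1 asil2-1 in Col-0, asil2-2 in Ler, and the double mutant asil1-1 asil2-2, whose ecotype is given as Columbia-0 together with Landsberg erecta. Every group was grown on sucrose-free MS plates at 22 °C in 16 h of light, and no hormone or pathogen treatment is named for any of them. The design text calls the replicates biological. The kind of each allele, the number of lines behind it and the number of seedlings in a library are not stated in the labels.

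Salicylic acid is the hormone behind defence against pathogens that feed on living tissue and behind systemic acquired resistance. It is perceived by the NPR receptors, and NPR1 acts with TGA bZIP factors at the promoters of output genes, while NIMIN proteins bind NPR1 and restrain it. Group III WRKY factors belong to the same output: WRKY70 and its close relative WRKY54 have overlapping roles in salicylate and leaf senescence responses, and WRKY38 and WRKY62 are known as negative regulators of basal defence. PR1, PR2 and PR5 encode secreted defence proteins, PR2 being a beta-glucanase and PR5 a thaumatin-like protein. PCC1 encodes a small protein whose RNA is induced by pathogens and follows the circadian clock.

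The 250 bases before the annotated start of NIMIN2, WRKY54, WRKY70 and PCC1 are printed because TGA and WRKY factors are known to act through such windows. They were chosen after their motifs were seen: 3 are the windows that hold TGACG, and WRKY54, called in more comparisons than any other of the 10 genes, is shown beside them. They are from the RefSeq TAIR10.1 assembly at chr3:9471040-9471289 for NIMIN2, chr2:17002529-17002778 for WRKY54, chr3:20910624-20910873 for WRKY70 and chr3:7846834-7847083 for PCC1. All 4 genes lie on the minus strand, and each window reads 5′ to 3′ along its gene. Capitals mark TTGAC, the W-box core that WRKY factors bind, and TGACG, the core of TGA factor sites, on either strand (GTCAA and CGTCA on the printed strand).
NIMIN2: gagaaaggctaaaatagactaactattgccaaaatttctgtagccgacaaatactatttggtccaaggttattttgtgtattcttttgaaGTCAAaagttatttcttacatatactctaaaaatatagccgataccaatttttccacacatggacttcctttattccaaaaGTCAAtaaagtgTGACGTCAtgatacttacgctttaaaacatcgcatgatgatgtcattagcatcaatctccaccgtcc
WRKY54: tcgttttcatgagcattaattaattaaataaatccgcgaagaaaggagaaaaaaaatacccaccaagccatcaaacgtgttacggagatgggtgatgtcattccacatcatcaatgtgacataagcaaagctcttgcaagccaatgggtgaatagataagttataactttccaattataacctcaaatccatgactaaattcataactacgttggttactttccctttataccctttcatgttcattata
WRKY70: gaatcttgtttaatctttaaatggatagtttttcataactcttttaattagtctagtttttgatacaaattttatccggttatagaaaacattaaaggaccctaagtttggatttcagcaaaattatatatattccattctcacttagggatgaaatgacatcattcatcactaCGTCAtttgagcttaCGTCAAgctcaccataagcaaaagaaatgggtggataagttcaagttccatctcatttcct
PCC1: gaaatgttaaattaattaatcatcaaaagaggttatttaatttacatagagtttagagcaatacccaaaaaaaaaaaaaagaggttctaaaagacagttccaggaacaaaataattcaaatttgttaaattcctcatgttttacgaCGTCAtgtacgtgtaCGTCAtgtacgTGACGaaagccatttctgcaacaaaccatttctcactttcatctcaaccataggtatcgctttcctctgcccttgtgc
The PCC1 window held 3 TGACG matches and no TTGAC, and the NIMIN2 window held 2 of each, its 2 TGACG matches facing each other across a shared CG. The WRKY70 window held 2 TGACG matches and 1 TTGAC that shares 4 bases with one of them. The WRKY54 window held neither motif. Of the genes not printed, WRKY38, PR5 and WRKY62 held TTGAC and none held TGACG, and NIMIN1 and PR2 held neither. Among the 9 genes whose windows were read, 5 windows held TTGAC, against 44.9% of the 27443 windows of protein-coding genes, and 3 held TGACG, against 18.6%. Windows with at least 2 TGACG matches made up 3.21% of the 27443. These matches are letters in a window and were not tested as binding sites.

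Library depth ran from 6522764 to 28794135 counts. ASIL1 followed its labels, at 4.83 ± 0.31 CPM (SD, n = 3; CPM are read counts scaled to a common library size with TMM factors) in asil1-1 against 33.6 ± 1.25 in Col-0. ASIL2 did not: it was at 435 ± 54.5 CPM in the libraries labelled asil2-1 and 168 ± 32.5 in those labelled asil1-1 asil2-1, against 38.1 ± 8.97 in Col-0. It was at 75.9 ± 15.5 CPM in the libraries labelled asil1-1 asil2-2, and at 24.4 ± 6.45 in those labelled asil2-2 against 31.6 ± 4.15 in Ler (adjusted p = 0.268). The labels do not say where the counted reads lie relative to each insertion or mutation, so these 4 groups are named as labelled throughout, and every direction drawn from them is one of labels that the ASIL2 counts do not bear out. The summed level of 15 root marker genes was 118, 128 and 79.5 CPM in Col-0 replicates 1, 2 and 3, 80.0 to 87.2 in asil1-1 and 92.4 to 118 in the other groups, with 0 to 3 of the 15 at 0 in a library (CASP5 at 0 in all 3 Col-0 libraries). Of 6 photosynthesis genes used as green tissue markers, 6 fell in the libraries labelled asil2-1, 5 in those labelled asil1-1 asil2-1 and 5 in those labelled asil1-1 asil2-2, all against Col-0. In whole seedlings, fewer cells of a type and less RNA per cell cannot be told apart.

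**Figure D1:**
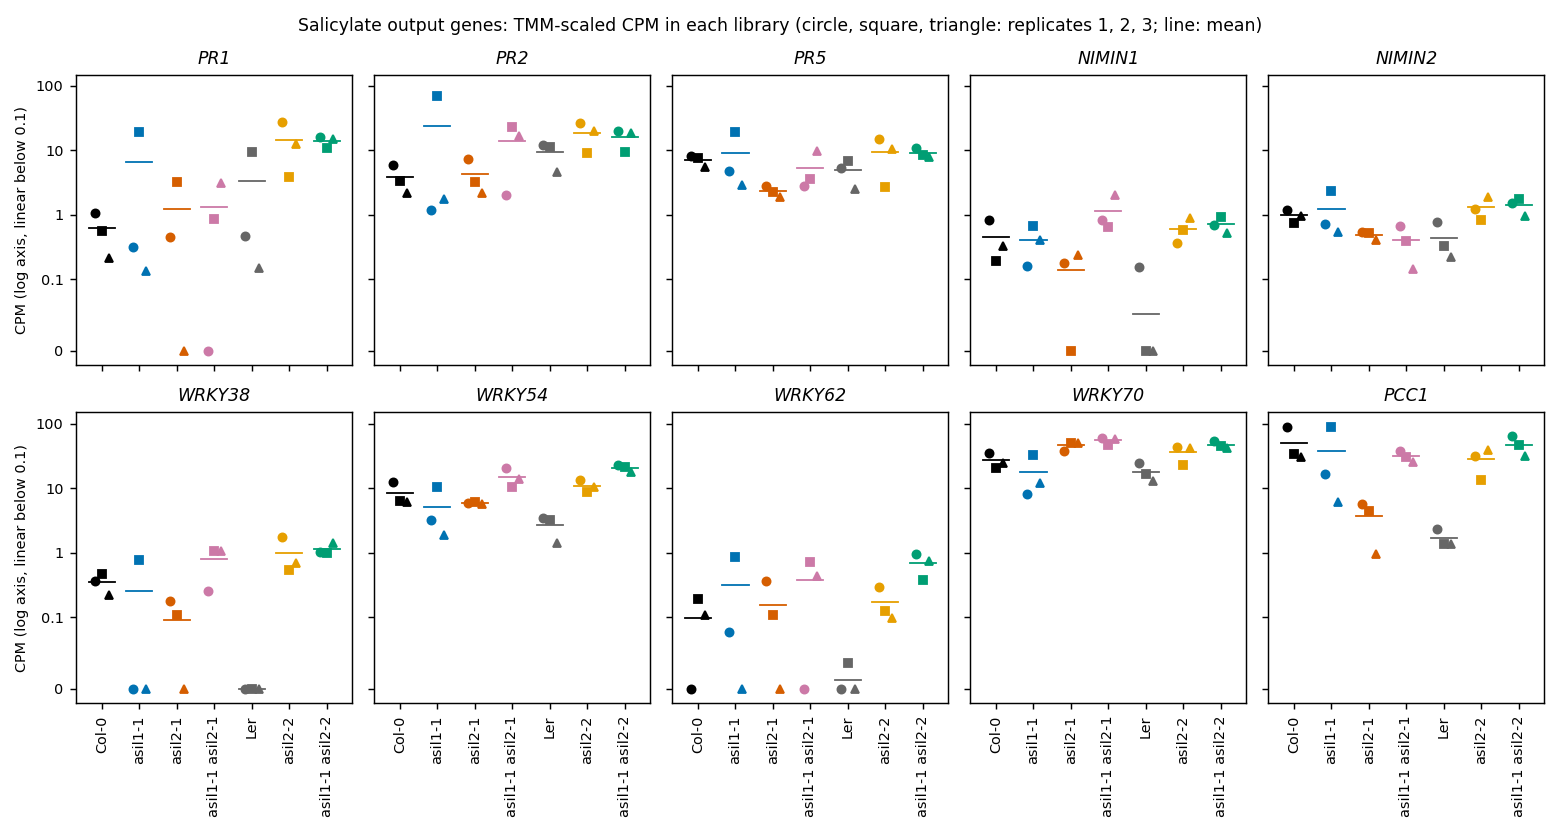
Level of each of the 10 genes in each library, as TMM-scaled CPM on an axis that is logarithmic above 0.1 and linear below; circles, squares and triangles are replicates 1, 2 and 3 and lines are group means. PR1 spans 0 to 27.3 CPM, WRKY70 stays between 7.98 and 60.0 CPM, and WRKY38 is at 0 in all 3 Ler libraries.

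Per kilobase of exon, the most abundant of the 10 transcripts were PCC1, at 37.0 CPM per kb over the 21 libraries, and WRKY70, at 24.0 CPM per kb. PR2, WRKY54, PR1 and PR5 formed a middle tier at 8.72, 6.82, 6.64 and 6.18 CPM per kb. NIMIN2, NIMIN1, WRKY38 and WRKY62 were the rarest, at 1.31, 0.81, 0.395 and 0.24 CPM per kb. For the rarest gene, WRKY62, this meant 76 counts in all 21 libraries together and 6 libraries at 0, and WRKY38 also had 6 libraries at 0.

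Transcripts of the secreted defence proteins PR1 and PR2 were uneven among libraries of a group. PR1 was at 1.08, 0.567 and 0.217 CPM in replicates 1, 2 and 3 of Col-0, and at 0.467, 9.44 and 0.149 in those of Ler. It was at 0.316, 19.5 and 0.134 CPM in asil1-1, at 0.451, 3.28 and 0 in the libraries labelled asil2-1, and at 0, 0.848 and 3.13 in those labelled asil1-1 asil2-1. The highest group means were with the asil2-2 label, at 27.3, 3.84 and 12.4 CPM for asil2-2 and 16.4, 10.9 and 15.2 for asil1-1 asil2-2. All 3 libraries labelled asil1-1 asil2-2 were above every library of Col-0, Ler and the groups labelled asil2-1 and asil1-1 asil2-1, while in Ler and asil1-1 a single library held nearly all PR1 counts, 263 of the Ler counts and 205 of the asil1-1 counts.

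PR2 repeated part of that picture. In asil1-1 it was at 1.19, 69.8 and 1.75 CPM, so that replicate 2 was again the outlying one. In the libraries labelled asil1-1 asil2-1 it was at 2.01, 22.7 and 16.9 CPM, and in those labelled asil2-2 at 26.9, 9.08 and 19.7. The other groups ran from 2.16 to 7.4 CPM in Col-0 and the libraries labelled asil2-1, from 4.55 to 12.3 in Ler and from 9.42 to 20.2 in those labelled asil1-1 asil2-2. PR5 varied least of the 3, between 1.92 and 19.5 CPM, and the only group whose libraries all lay below every Col-0 library was the one labelled asil2-1, at 2.8, 2.22 and 1.92 CPM against 8.06, 7.75 and 5.53.

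The NPR1-binding NIMIN proteins were encoded by scarce transcripts. NIMIN1 had 1 count in the 3 Ler libraries together, at 0.156, 0 and 0 CPM, against 0.842, 0.189 and 0.325 in Col-0. It was at 0.363, 0.573 and 0.884 CPM in the libraries labelled asil2-2 and at 0.688, 0.924 and 0.516 in those labelled asil1-1 asil2-2, each above all of Ler. Libraries labelled asil1-1 asil2-1 had 0.838, 0.652 and 1.99 CPM, each above those labelled asil2-1, at 0.18, 0 and 0.24. NIMIN2 ran from 0.142 to 2.38 CPM over all libraries, with means of 0.442 ± 0.296 in Ler, 1.31 ± 0.53 in the libraries labelled asil2-2 and 1.42 ± 0.42 in those labelled asil1-1 asil2-2 (SD, n = 3).

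The group III WRKY transcripts split by abundance. WRKY54 was at 12.6, 6.23 and 6.18 CPM in Col-0 and at 3.43, 3.16 and 1.42 in Ler, with no overlap. It was at 13.4, 8.83 and 10.3 CPM in the libraries labelled asil2-2 and at 22.6, 21.1 and 17.6 in those labelled asil1-1 asil2-2. The latter group was the highest of the 7 for WRKY54 and overlapped one other group, the libraries labelled asil1-1 asil2-1, at 20.6, 10.5 and 14.0 CPM. In asil1-1 it was at 3.24, 10.4 and 1.88 CPM, and the libraries labelled asil2-1 lay within 5.61 to 6.03.

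WRKY70 showed smaller steps at a higher level. It was at 35.5, 20.9 and 24.2 CPM in Col-0, at 7.98, 32.6 and 11.8 in asil1-1 and at 24.3, 16.6 and 12.8 in Ler. In the libraries labelled asil2-1 it was at 37.7, 50.9 and 50.8 CPM, and in those labelled asil1-1 asil2-1 at 60.0, 47.1 and 57.5, all above the 3 Col-0 libraries. Libraries labelled asil2-2 had 43.6, 22.9 and 41.7 CPM and those labelled asil1-1 asil2-2 had 53.1, 45.1 and 42.6. By group mean the order ran from asil1-1 (17.5 ± 13.3 CPM) and Ler (17.9 ± 5.84) through Col-0 (26.9 ± 7.67) and the libraries labelled asil2-2 (36.1 ± 11.5), asil2-1 (46.5 ± 7.60) and asil1-1 asil2-2 (47.0 ± 5.48) to those labelled asil1-1 asil2-1 (54.9 ± 6.86), and adjacent groups in that order overlapped.

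WRKY38 and WRKY62, the negative regulators, were near the detection limit. WRKY38 had 0 counts in all 3 Ler libraries, where 3 counts would equal 0.104 to 0.46 CPM. It had 24, 13 and 14 counts in the libraries labelled asil2-2 and 15, 16 and 19 in those labelled asil1-1 asil2-2, against 3, 5 and 2 in Col-0. WRKY62 had 1 count in Ler, 3 in Col-0, 9 in the libraries labelled asil2-2 and 30 in those labelled asil1-1 asil2-2, each over 3 libraries. These limits cover counting error only.

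PCC1 had the widest range of group means, from 1.68 ± 0.57 CPM in Ler to 51.0 ± 32.5 in Col-0 (SD, n = 3). It was at 88.4, 33.9 and 30.6 CPM in Col-0 and at 2.34, 1.36 and 1.34 in Ler. It was at 5.68, 4.39 and 0.961 CPM in the libraries labelled asil2-1, below every Col-0 library, and at 37.4, 30.5 and 25.4 in those labelled asil1-1 asil2-1. Libraries labelled asil2-2 had 31.9, 13.3 and 38.6 CPM and those labelled asil1-1 asil2-2 had 63.5, 46.9 and 31.2. In asil1-1 the libraries were split, at 16.6, 89.4 and 6.04 CPM.

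**Figure D2:**
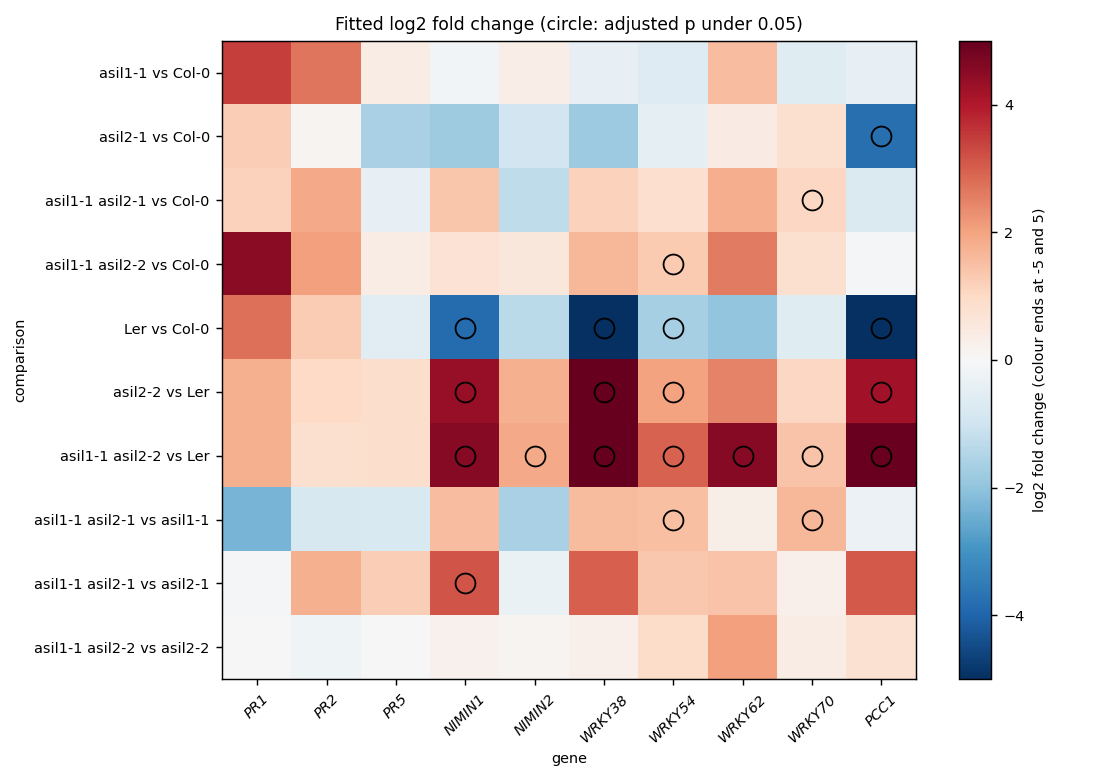
Fitted log2 fold change of each of the 10 genes (columns) in the 10 pairwise comparisons (rows, group names as in the labels), with red for higher and blue for lower in the first-named group and circles where the adjusted p was under 0.05. The 2 rows against Ler hold most circles, and PR1, PR2 and PR5 have none in any row.

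Differences between groups were tested with edgeR's quasi-likelihood test in a single fit of all 21 libraries, and p-values were adjusted by Benjamini-Hochberg over the 19589 loci, with 0.05 as the threshold. Comparisons against Col-0 share the 3 Col-0 libraries, and those against Ler share the 3 Ler libraries, so their results are given side by side and not as repeats of each other.

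In Landsberg erecta, 4 of the 10 genes were higher in the libraries labelled asil2-2 than in Ler, and none was lower, although ASIL2 itself did not fall there beyond the threshold. Over all loci, 2.39% rose and 3.57% fell in that comparison. PCC1 rose by 4.18 ± 1.00 on the log2 scale (SE, adjusted p = 0.0235) and WRKY54 by 2.02 ± 0.46 (adjusted p = 0.0155). WRKY38 rose from 0 counts and was at least 13.8-fold higher, taking 3 counts over the 3 Ler libraries as the floor (adjusted p = 0.00841). NIMIN1 rose from 1 count, a ratio of 30.1 with a 95% counting interval of 5.08 to 1220 (adjusted p = 0.0203). The median of the 10 log2 changes was 1.91, against -0.001 over all loci. PR1 had a log2 change of 1.79 ± 1.26 (adjusted p = 0.452), PR2 of 0.99 ± 1.08 (adjusted p = 0.653) and NIMIN2 of 1.77 ± 0.58 (adjusted p = 0.0725), which did not pass.

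These 4 calls leaned on single libraries. Without Ler replicate 2, the deepest Ler library, 0 of the 10 passed, with WRKY54 at a log2 change of 2.30 (adjusted p = 0.0558) and PCC1 at 4.03 (adjusted p = 0.131). Without Ler replicate 3, WRKY38 alone passed. Without asil2-2 replicate 1, NIMIN1 and WRKY38 passed, and without asil2-2 replicate 2, which was the lowest of its group for 8 of the 10 genes, WRKY38, WRKY54 and PCC1 passed. Without Ler replicate 1, NIMIN2 joined the 4, at a log2 change of 2.16 (adjusted p = 0.0461). Fitting only the 6 libraries compared left WRKY54 and PCC1, since NIMIN1 and WRKY38 did not pass the filter on low counts there and were not tested.

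In the libraries labelled asil1-1 asil2-2, 7 of the 10 genes rose against Ler and none fell, in a comparison where 14.8% of all loci rose and 13.5% fell. The 7 were both NIMIN genes, all 4 WRKY genes and PCC1, while the 3 PR genes did not pass. PCC1 rose by 4.95 ± 0.99 on the log2 scale (adjusted p = 0.00171), WRKY54 by 2.95 ± 0.46 (adjusted p = 0.000132) and WRKY70, the activator, by 1.43 ± 0.40 (adjusted p = 0.0133). NIMIN2 rose by 1.90 ± 0.58 (adjusted p = 0.0175). WRKY38 was at least 17.9-fold higher, and from 1 Ler count each NIMIN1 had a ratio of 34.4 (5.75 to 1400) and WRKY62 of 32.3 (5.36 to 1320). PR1 had a log2 change of 1.78 ± 1.26 (adjusted p = 0.327), with an interval from -0.92 to 4.48. The median of the 10 was 2.42, against -0.014 over all loci. ASIL2 was higher in these libraries than in Ler, against the label, and 4 of the 6 green tissue markers fell, whose part in the difference was not tested. Without Ler replicate 2, the count of 7 became 4, with NIMIN2, WRKY62 and WRKY70 no longer past the threshold. In a fit of the 6 libraries alone 5 passed, as NIMIN1 and WRKY62 were removed by the filter on low counts. The label of this line names both ecotypes, so genotype and ecotype cannot be told apart in any comparison of it. NIMIN1, WRKY38, WRKY54 and PCC1 were also called lower in Ler than in Col-0. Against Col-0 their log2 changes in this line were 0.71 ± 0.73, 1.66 ± 0.81, 1.31 ± 0.41 and -0.10 ± 0.70.

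Against Col-0, the other parent ecotype named for this double mutant, 1 of the 10 genes passed: WRKY54 rose by 1.31 ± 0.41 on the log2 scale (adjusted p = 0.023). Over all loci, 16.7% rose and 15.5% fell. WRKY54 was therefore the 1 gene of the 10 that was higher than in both wild types, where 6.5% of all loci were higher than in both and 4.08% were lower than in both. PR1 had a log2 change of 4.52 ± 1.78 (adjusted p = 0.0659), its 3 libraries at 10.9 to 16.4 CPM against 0.217 to 1.08. The spread of PR1 in that fit is shared with groups such as asil1-1 and Ler, in which a single library was high. With DESeq2 PR1 passed at 4.49 (adjusted p = 0.0352), and in a fit of the 6 libraries alone it passed at 4.5 (adjusted p = 1.12e-05), there with PR2, WRKY38, WRKY54 and WRKY70. Over all loci, DESeq2 called 6328 and the fit of the 6 libraries 4720, against 6303 in the main fit. The WRKY54 call was lost without Col-0 replicate 2 or 3, or without asil1-1 asil2-2 replicate 1, at log2 changes of 1.13 to 1.23. Of the green tissue markers, 5 of 6 fell in this comparison, whose part in it was not tested.

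Between the libraries labelled asil1-1 asil2-2 and those labelled asil2-2, none of the 10 genes passed in edgeR, 2 had an unadjusted p under 0.05 and DESeq2 called none, while 13.4% of all loci rose and 9.85% fell. The widest 95% intervals were for PR1, from -2.53 to 2.50 on the log2 scale, and for PR2, from -2.40 to 2.00, so changes of several fold in either direction were not detectable. In a fit of these 6 libraries alone, WRKY54 passed at a log2 change of 0.93 (adjusted p = 0.00283). These groups differ in the ecotype named as well as in asil1-1, and the parts of these cannot be told apart.

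The wild types themselves differed. In Ler, 4 of the 10 genes were lower than in Col-0 and none was higher, against 18.3% of all loci lower and 17.9% higher. They are the same 4 that were higher in the libraries labelled asil2-2 than in Ler. Both comparisons use the same Ler libraries, so they are not separate observations. PCC1 fell by 5.05 ± 1.00 on the log2 scale (adjusted p = 0.00119) and WRKY54 by 1.64 ± 0.49 (adjusted p = 0.0141). WRKY38 was at least 5.65-fold lower (adjusted p = 0.0231), and NIMIN1 was lower by a ratio of 20.3 with a counting interval of 3.01 to 870 (adjusted p = 0.0187). TAIR10 is the only genome build in the submitters' notes. Whether reads of Ler were mapped as fully as those of Col-0 was not tested. PR1 had a log2 change of 2.75 ± 1.93 (adjusted p = 0.289), which turned to -1.21 without Ler replicate 2. Root marker genes moved with this comparison, 4 of 13 tested being lower in Ler and 1 higher, as did 4 of 6 green tissue markers, and their part was not tested. When Col-0 was represented by replicate 3 alone, which had the lowest root marker level of the 3, PCC1 was the 1 gene that passed, at -4.31 (adjusted p = 0.0258). Without Ler replicate 3 PCC1 was also the only gene that passed, without Ler replicate 2 or Col-0 replicate 1 the count was 2, and without Col-0 replicate 2 it was 3. In a fit of the 6 libraries alone WRKY54 and PCC1 passed, and NIMIN1 and WRKY38 were removed by the filter on low counts.

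**Figure D3:**
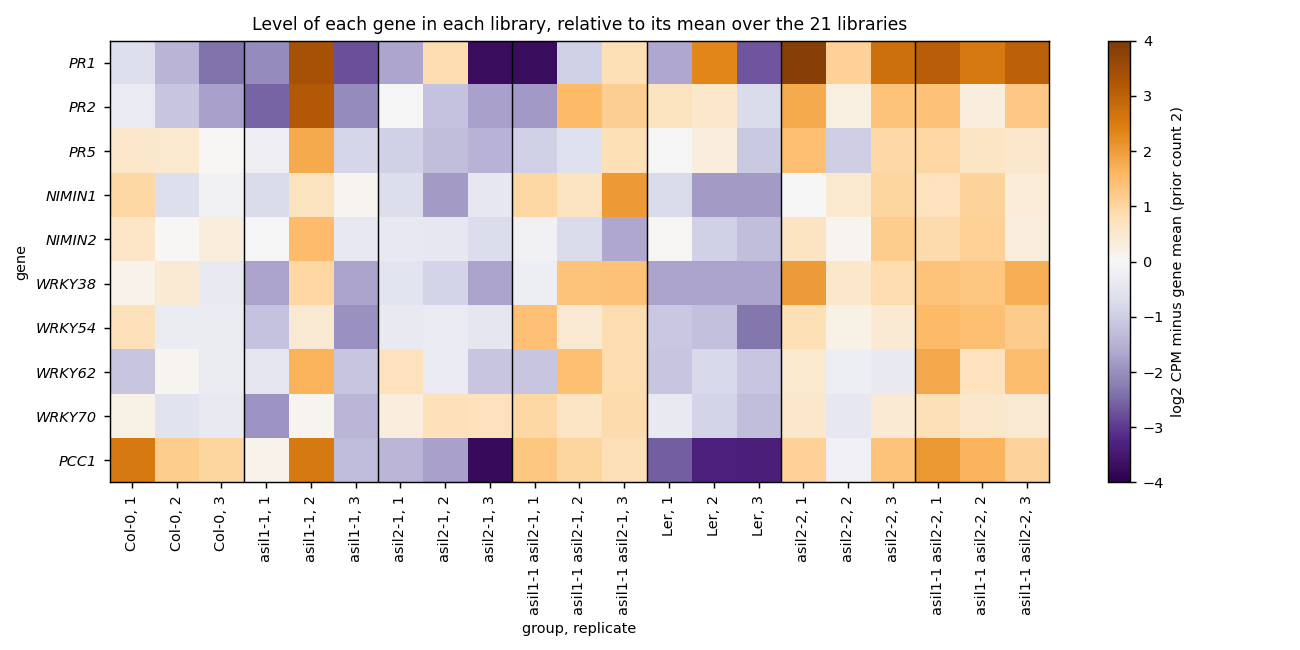
Level of each gene (rows) in each of the 21 libraries (columns, group and replicate) as log2 CPM minus the gene's mean over all libraries, orange for above and purple for below, with lines between groups. The 3 Ler columns are purple for PCC1, WRKY38 and WRKY54, the 3 columns of asil1-1 asil2-2 are orange for all 10 genes, and asil1-1 replicate 2 stands out from the columns beside it.

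In Col-0, the libraries labelled asil2-1 moved a single gene of the 10. PCC1 fell by 3.78 ± 0.87 on the log2 scale (adjusted p = 0.00339) and no other gene passed, in a comparison where 21.9% of all loci rose and 19.3% fell and where ASIL2 was higher, against the label. The median of the 10 was -0.73, against 0.019 over all loci. PR5 had a log2 change of -1.63 ± 0.76 (adjusted p = 0.0986), which passed with DESeq2 at -1.66 (adjusted p = 0.0412), and WRKY70 had one of 0.80 ± 0.39 (adjusted p = 0.113). In a fit of the 6 libraries alone both passed, PR5 at -1.67 (adjusted p = 0.00083) and WRKY70 at 0.76 (adjusted p = 0.0208). With replicate 3 standing alone for Col-0, PCC1 was at -3.04 (adjusted p = 0.0695). Root markers fell in 5 of 13 and green tissue markers in 6 of 6, and their part was not tested.

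Genes placed around these 10 in the pathway were counted in the same comparison, against the same 21.9% of all loci that rose and 19.3% that fell. Of 8 genes for salicylate synthesis and the EDS1 node, 4 rose and none fell, among them CBP60G, a transcriptional activator of ICS1, by 2.22 ± 0.21 on the log2 scale (adjusted p = 2.09e-07), SAG101, a partner of EDS1, by 1.41 ± 0.14 (adjusted p = 2.37e-07) and EDS1 by 0.45 ± 0.15 (adjusted p = 0.0227). In the same list, ICS1 itself was at 12.5 ± 1.32 CPM against 10.2 ± 2.05 in Col-0 (SD, n = 3). EDS5 was at 5.02 ± 1.36 against 6.19 ± 1.34, and PBS3 at 3.92 ± 0.50 against 6.22 ± 2.58. Of 10 receptors and TGA factors 3 rose and 1 fell, and of 5 genes for salicylate breakdown and conjugation none rose and 1 fell, close to the counts those shares would give. The receptors that rose were NPR3 at 1.28 ± 0.12 (adjusted p = 1.14e-07), NPR1 at 0.51 ± 0.11 (adjusted p = 0.0013) and NPR4 at 0.44 ± 0.12 (adjusted p = 0.00599). Other members of WRKY group III rose in 3 of 4 tested, of 9 listed: WRKY53, a senescence regulator, by 4.41 ± 0.39 (adjusted p = 3.89e-07), WRKY46 by 2.99 ± 0.36 (adjusted p = 2.83e-06) and WRKY30 by 3.98 ± 0.49 (adjusted p = 3.32e-06). The size of the WRKY30 change rests on few Col-0 counts, 4, 2 and 0 in replicates 1, 2 and 3. WRKY53 was at 77.0, 85.8 and 119 CPM against 2.53, 5.29 and 5.21 in Col-0, while WRKY54 was at 5.61 to 6.03 CPM against 6.18 to 12.6 and did not pass. Of 8 other salicylate and systemic resistance outputs, none rose and FMO1 fell, by 2.25 ± 0.85 (adjusted p = 0.0418).

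Of the close relatives of the 10 genes, 3 of 4 tested fell in the libraries labelled asil2-1. AT3G22240, which lies close to PCC1 in locus number, fell by 2.65 ± 0.43 on the log2 scale (adjusted p = 6.92e-05) and AT3G22235 fell by 3.64 ± 0.78 (adjusted p = 0.00166). PRB1, a relative of PR1, fell by 2.70 ± 0.47 (adjusted p = 0.000141). AT3G22240 was at 7.46, 8.5 and 5.64 CPM in Col-0 and between 0.902 and 1.27 in the libraries labelled asil2-1. The sources used here do not say how reads shared by such relatives were counted, so the PCC1 value and theirs may not be fully separate.

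The libraries labelled asil1-1 asil2-1 also had a single gene of the 10 past the threshold against Col-0, WRKY70 and not PCC1. Tested directly in edgeR against the libraries labelled asil2-1, WRKY70 differed by 0.235 ± 0.372 on the log2 scale (adjusted p = 0.815). PCC1 differed by 3.067 ± 0.868 (adjusted p = 0.0506), so neither difference between these groups passed. Against Col-0, WRKY70 rose by 1.04 ± 0.39 on the log2 scale (adjusted p = 0.0461), where 20.5% of all loci rose and 18.8% fell and ASIL2 was again higher, against the label. That call stood close to the threshold: it was lost without Col-0 replicate 2 or 3, without any 1 of the 3 libraries labelled asil1-1 asil2-1, with RLE scaling, with no filter and with a replicate block (adjusted p = 0.061), at log2 changes of 0.88 to 1.14. With replicate 3 standing alone for Col-0 it was also lost, at 1.19 (adjusted p = 0.191). It held without Col-0 replicate 1, where WRKY54 joined it at 1.27 (adjusted p = 0.0453). Root markers fell in 6 of 13 and green tissue markers in 5 of 6, and their part was not tested. Of the 8 synthesis and EDS1 node genes 3 rose, and of the 4 other group III WRKY genes 3 rose.

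Against asil1-1, the libraries labelled asil1-1 asil2-1 had 2 of the 10 genes higher and none lower, with 6.21% of all loci up and 9.43% down. WRKY70 rose by 1.65 ± 0.40 on the log2 scale (adjusted p = 0.0113) and WRKY54 by 1.5 ± 0.43 (adjusted p = 0.0261). WRKY54 lost its call without asil1-1 replicate 1 or 3 or without asil1-1 asil2-1 replicate 1 or 3, and WRKY70 without asil1-1 replicate 3, and neither passed in a fit of the 6 libraries alone. Without asil1-1 replicate 2, the highest asil1-1 library for all 10 genes, both passed together with WRKY38. Larger changes were fixed in advance there. Green tissue markers fell in 5 of 6, which was not tested as a part of it.

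Against the libraries labelled asil2-1, those labelled asil1-1 asil2-1 had 1 gene of the 10 higher, with 3.17% of all loci up and 3.04% down. NIMIN1 rose by 3.16 ± 0.80 on the log2 scale (adjusted p = 0.0185), on 48 counts against 5. The call was lost without asil1-1 asil2-1 replicate 3 or asil2-1 replicate 2. DESeq2 gave NIMIN1 no adjusted p, and in a fit of the 6 libraries alone the filter on low counts removed it, so neither tested the call. WRKY54, at 1.37 (adjusted p = 0.0161), and PCC1 passed in that fit. PCC1 had a log2 change of 3.07 ± 0.87 (adjusted p = 0.0506), its libraries at 25.4 to 37.4 CPM against 0.961 to 5.68, and passed with DESeq2 at 3.08 (adjusted p = 0.00247).

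**Figure D4:**
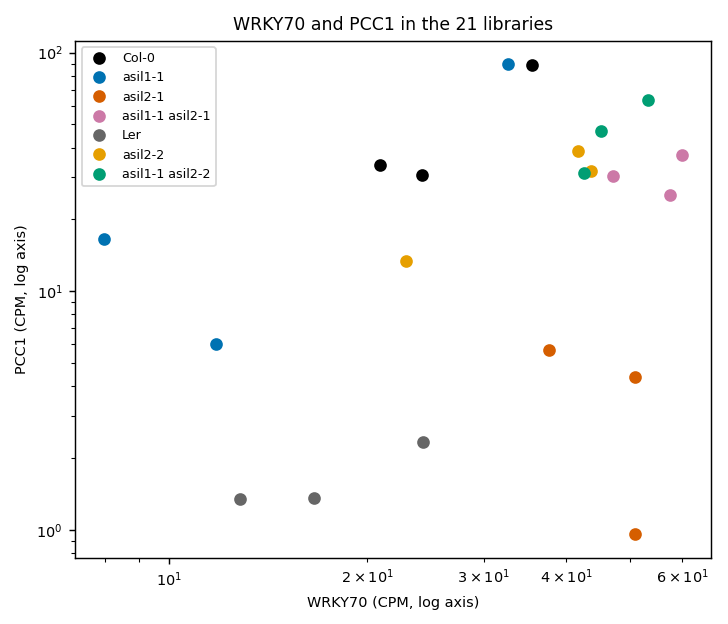
PCC1 against WRKY70 in the 21 libraries, both as TMM-scaled CPM on logarithmic axes, coloured by group. The 3 libraries labelled asil2-1 combine WRKY70 at 37.7 to 50.9 CPM with PCC1 at 0.961 to 5.68 CPM, a part of the plot that holds no library of another group.

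For asil1-1 alone the 10 genes gave no call against Col-0 in edgeR, with 1 unadjusted p under 0.05 (PR2) and none called by DESeq2, while 8.91% of all loci rose and 8.35% fell. Within the group, replicate 2 was the highest of the 3 for all 10 genes, at 86.7 times the mean of the other libraries for PR1, 47.6 times for PR2, 7.9 times for PCC1 and 3.3 times for WRKY70. It was also the highest for 7 of the 8 synthesis and EDS1 node genes and for 8 of 8 other salicylate and systemic resistance outputs. Some other groups also had a leading library. In asil2-2, replicate 1 was highest for 7 of the 10 genes, 6 of the 8 node genes and 8 of 8 other outputs. In Col-0, replicate 1 was highest for 8 of the 10, while in asil1-1 asil2-1 no library was highest for more than 4. The share of all loci for which a library was highest was not counted. Replicate 2 of asil1-1 held 11015050 counts, against 13577815 and 8032518 in the others, and ASIL1 was at 4.47 CPM in it.

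With all 3 asil1-1 libraries the log2 change was 3.46 ± 1.90 for PR1 (adjusted p = 0.229), 2.68 ± 1.24 for PR2 (adjusted p = 0.154) and 0.37 ± 0.68 for PR5 (adjusted p = 0.752). Without replicate 2 all 3 turned negative, to -1.26, -1.43 and -0.84, and none passed. WRKY54 and WRKY70 then fell past the threshold, by 1.62 (adjusted p = 0.0192) and by 1.46 (adjusted p = 0.014). Replicate 2 was singled out as the highest library for these same genes, so lower values without it were fixed in advance. The changes without it are therefore given as a description and not as a test. Root markers fell in 7 of 13 and rose in 1 in the comparison with all 3 libraries, which was not tested as a part of it. With replicate 3 standing alone for Col-0, 0 of the 10 passed.

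**Figure D5:**
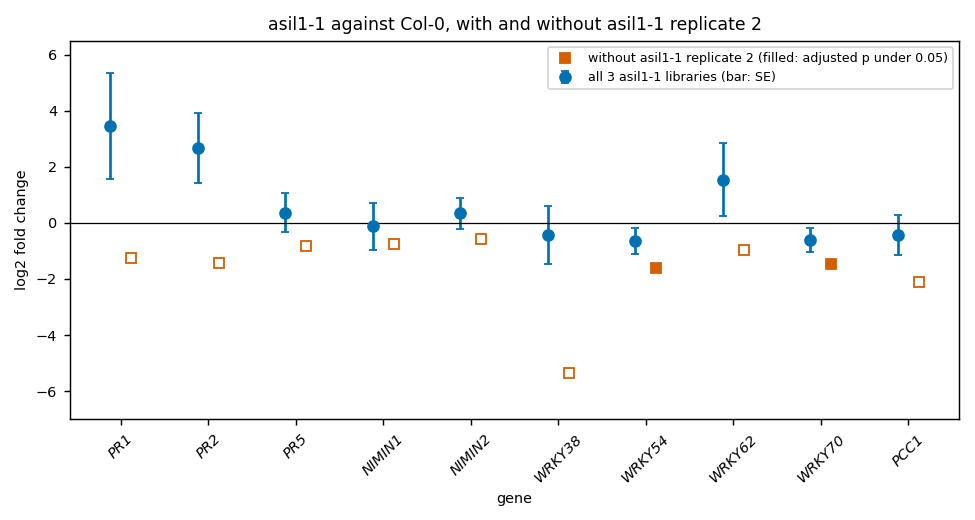
Log2 fold change of each gene in asil1-1 against Col-0 with all 3 asil1-1 libraries (circles, bars are SE) and without replicate 2 (squares, filled where the adjusted p was under 0.05). PR1, PR2, PR5, NIMIN2 and WRKY62 cross from above to below 0, the filled squares are WRKY54 and WRKY70, and the WRKY38 square rests on 0 counts in both remaining asil1-1 libraries. Replicate 2 was the highest of its group for every gene shown, so lower squares were fixed in advance.

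The test of whether the asil1-1 change differed with the asil2-1 label present called none of the 10 genes in edgeR, with 2.22% of all loci positive and 2.33% negative. An unadjusted p under 0.05 was seen for 4 of the 10, and the share of all loci with such a p was not counted. DESeq2 called 2, WRKY54 at 2.07 (adjusted p = 0.0389) and PCC1 at 3.56 (adjusted p = 0.0253). Over all loci DESeq2 called 1513, against 892 in edgeR. Without asil1-1 replicate 2, edgeR called WRKY38, WRKY54 at 2.97 (adjusted p = 0.0144) and PCC1 at 5.16 (adjusted p = 0.0201), and without asil1-1 asil2-1 replicate 2 it called WRKY54 at 2.19 (adjusted p = 0.0484). As asil1-1 replicate 2 was the highest of its group for all 10 genes, more positive values without it were fixed in advance.

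The change from Ler to the libraries labelled asil2-2 differed from that between Col-0 and the libraries labelled asil2-1 for 5 of the 10 genes, all in the direction of a more positive change with asil2-2. Over all loci, 10.6% had a more positive change with asil2-2 and 12.1% a more negative one. For PCC1 the changes were 4.18 and -3.78, a difference of 7.96 ± 1.32 on the log2 scale (adjusted p = 0.000656). For WRKY54 they were 2.02 and -0.49, a difference of 2.52 ± 0.64 (adjusted p = 0.00951). The others were NIMIN1, NIMIN2 and WRKY38, of which NIMIN1 and WRKY38 rest on 1 and 0 Ler counts. Allele and ecotype cannot be told apart in this contrast, and ASIL2 followed neither label. The contrast uses the same Ler and Col-0 libraries as the comparison of the wild types, so it is not a separate observation. NIMIN2 lost its call without Ler replicate 2 or 3, Col-0 replicate 1 or asil2-2 replicate 3, at 2.35 to 2.56, and with the length correction, at 1.94 (adjusted p = 0.106). In a fit of the 4 groups alone NIMIN2, WRKY54, PCC1 and PR5 passed, while NIMIN1 and WRKY38 were removed by the filter on low counts. Of the 4 other group III WRKY genes tested, 3 went the other way, where 12.1% of all loci did. One was WRKY53, which rose with the asil2-1 label, with a difference of -6.18 ± 0.54 (adjusted p = 8.3e-07).

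Other salicylate genes that rose with the asil2-2 label against Ler included ACD6, an ankyrin protein that promotes salicylate accumulation. ACD6 was at 3.43, 2.44 and 2.83 CPM in Ler, at 73.3, 18.1 and 40.1 in the libraries labelled asil2-2 and at 240, 123 and 216 in those labelled asil1-1 asil2-2, with 71.3 to 198 in Col-0. It rose by 3.97 ± 0.74 on the log2 scale with asil2-2 (adjusted p = 0.00602) and by 6.13 ± 0.76 with asil1-1 asil2-2 (adjusted p = 2.97e-05). Of the 8 other outputs, 2 rose with asil2-2, where 2.39% of all loci rose, and 4 with asil1-1 asil2-2, where 14.8% did, including the wall-associated kinase WAK1, at 2.54 ± 0.61 (adjusted p = 0.0236) and 3.38 ± 0.62 (adjusted p = 0.00081). Of the 8 synthesis and EDS1 node genes, 1 rose with asil2-2, SARD1, another activator of ICS1, by 2.08 ± 0.54 (adjusted p = 0.03), and 4 rose with asil1-1 asil2-2, against the same shares of all loci.

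The genes whose levels over the 21 libraries were most like the mean of the 10 were AT5G10760 (Pearson r = 0.91), RLP38 (0.90), AT5G03350 (0.89), WAK1 (0.88) and LURP1 (0.88), among 19579 loci ranked on log2 CPM. Those most like PR1 were CRK7 (0.89), PCR1 (0.88), AT5G52720 (0.86), PAD3 (0.83) and AT5G61100 (0.82). Libraries of a group share genotype, and asil1-1 replicate 2 is the highest of its group for all 10 genes, so the coefficients describe these 21 libraries and carry no test.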

How the data were processed

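Total RNA of 14-day-old seedlings, 5 ug per library, was polyA-selected and sequenced, per the labels' protocols. The deposited files hold raw read counts per transcript model, in the unit count, without a header line, and TAIR10, edgeR 3.0.8 and Bowtie 0.12.7 appear in the submitters' processing notes. The sources used here do not give the counting rule, the use of strand or the treatment of reads shared by related genes. Model suffixes were stripped, loci absent from a library were set to 0, and 23867 of 24100 loci matched the RefSeq gene table.

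Counts were scaled by TMM, filtered by edgeR's filterByExpr (4511 loci removed) and fitted in edgeR 4.0.16 (R 4.3.3) by robust quasi-likelihood with 1 mean per group and 14 residual degrees of freedom, without a replicate block. CPM values are TMM-scaled. The code was tested on simulated data. Library pairs of a group were checked for copies of each other. All pairs differed by more than sampling noise (chi-square per degree of freedom 3.81 to 23.6), so none was dropped as a copy and all 21 libraries were kept. That check does not rate library quality. The 10 genes, the pathway lists and the comparisons were chosen with earlier results of these data known. From each pathway list, up to 3 called genes with the smallest p were eligible for naming, and the 5 loci most like the mean of the 10 and most like PR1 were named. Alternatives were RLE or no scaling, other filters, DESeq2 1.42.0, the compared groups alone, a replicate block, a length correction, Col-0 replicate 3 alone and each library left out. Upstream windows were read for 9 of the 10 genes, and the remaining window is not reported here.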

Additional observations from a re-analysis of the deposited data

Results flagged for a closer look

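For 5 of the 10 genes the change from wild type to the asil2 label differed between the 2 ecotypes by a test of the difference itself, edgeR's quasi-likelihood test of the asil2-2 change against Ler minus the asil2-1 change against Col-0. Over all loci 10.6% differed in that direction and 12.1% in the other. The differences on the log2 scale were 7.961 ± 1.32 for PCC1 (SE, adjusted p = 0.000656), 2.515 ± 0.64 for WRKY54 (adjusted p = 0.00951), 2.73 ± 0.84 for NIMIN2 (adjusted p = 0.0222), 6.109 ± 1.49 for NIMIN1 (adjusted p = 0.00519) and 8.548 ± 1.97 for WRKY38 (adjusted p = 0.00401). The values of NIMIN1 and WRKY38 depend on the prior count of the fit, since Ler held 1 and 0 counts. All 3 libraries labelled asil2-2 lay above all 3 Ler libraries for each of the 5 genes, for NIMIN2 narrowly (lowest 0.818 against highest 0.779 CPM). The 5 were picked by a test that uses these same values, so this adds no support. The share of all loci so separated was not counted. With replicate 3 standing alone for Col-0, PCC1 alone of the 5 passed, at 7.23 (adjusted p = 0.00778). NIMIN2 was at 1.94 (adjusted p = 0.106) with the length correction, and in a fit of the 4 groups alone NIMIN1 and WRKY38 were removed by the filter on low counts and not tested. Allele and ecotype cannot be told apart, and what the difference rests on was not tested. The same Ler and Col-0 libraries enter the comparison of the wild types.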

How the results depend on the processing

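Counts of the 10 genes past the threshold moved by over 1.5 times as follows, with smaller moves given after them. With replicate 3 standing alone for Col-0 they were 0 for asil2-1, 0 for asil1-1 asil2-1, 0 for asil1-1 asil2-2 and 1 for Ler, each against Col-0, and 1 for the asil2-2 change minus the asil2-1 change. With DESeq2 they were 2 for asil2-1 and 2 for asil1-1 asil2-2 against Col-0, and 2 for the non-additivity of asil1-1 and asil2-1. For asil1-1 asil2-1 against Col-0 they were 0 with RLE scaling, 0 with no filter and 2 with the length correction, which also gave 2 for asil1-1 asil2-2 against Col-0. In fits of the compared groups alone they were 3 for asil2-1, 2 for Ler and 5 for asil1-1 asil2-2 against Col-0, 2 for asil2-2 against Ler, 3 for asil1-1 asil2-2 against both wild types and 1 against asil2-2, and for asil1-1 asil2-1 0 against asil1-1 and 2 against asil2-1. Over all loci, fits of the compared groups alone called 7144 for asil2-1, 5801 for Ler and 4720 for asil1-1 asil2-2 against Col-0. The calls were 931 for asil2-2 against Ler and 3408 for asil1-1 asil2-2 against asil2-2. For asil1-1 asil2-1 they were 3437 against asil1-1 and 1337 against asil2-1. Such fits drop the spread shared with the other groups. Smaller moves were from 7 to 5 for asil1-1 asil2-2 against Ler in the compared groups alone and with a filter of 1 CPM in 3 libraries. That filter also gave 3 for asil2-2 against Ler, 3 for Ler against Col-0 and 4 for the asil2-2 change minus the asil2-1 change, which was 4 with the compared groups alone, 4 with the length correction and 6 with DESeq2. The length correction gave 3 for asil1-1 asil2-1 against asil1-1. With the CPM filter, and for NIMIN1, WRKY38 and WRKY62 in the compared groups alone, the calls that went were of genes the filter removed, not of genes that failed the test. The causes of the other moves were not tested.

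Same-numbered replicates of different groups shared a median correlation of deviations of 0.05 (from -0.4 to 0.37, 63 pairs). For replicates with other numbers the median was -0.01 (from -0.42 to 0.44, 126 pairs). Not every same-numbered pair correlated, and the numbers are not taken to pair the libraries. As a hint from the data and not the design, 12 of 21 libraries correlated best with their own number, and whether this exceeds what unpaired libraries give was not tested. With a replicate block the count was 0 for asil1-1 asil2-1 against Col-0 and 2 against asil2-1, and no other count of the 10 genes changed.

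Leaving out 1 library at a time gave 0 to 2 genes for asil1-1, 1 to 1 for asil2-1, 0 to 2 for asil1-1 asil2-1, 0 to 1 for asil1-1 asil2-2 and 1 to 4 for Ler against Col-0. It gave 0 to 5 for asil2-2 and 4 to 7 for asil1-1 asil2-2 against Ler, 0 to 1 for both wild types, 0 to 0 for asil1-1 asil2-2 against asil2-2, 1 to 3 and 0 to 1 for asil1-1 asil2-1 against asil1-1 and asil2-1, 0 to 3 for the non-additivity and 4 to 6 for the asil2-2 change minus the asil2-1 change. Reversals were looked for only in the called changes and in a set of named uncalled ones. Among those, directions reversed for PR1, PR2 and PR5 in asil1-1 against Col-0 without asil1-1 replicate 2. Their log2 changes ran from -1.26 to 4.06, from -1.43 to 3.27 and from -0.84 to 0.76 over the libraries left out. PR1 in Ler against Col-0 also reversed, without Ler replicate 2, from -1.21 to 3.33. Outside that set, NIMIN2 and WRKY62 also turned negative in asil1-1 against Col-0 without asil1-1 replicate 2. Over all loci, the calls in asil1-1 against Col-0 dropped from 3382 to 202 with Col-0 replicate 3 alone, those in asil2-1 from 8081 to 3953, in asil1-1 asil2-1 from 7683 to 3895, in asil1-1 asil2-2 from 6303 to 3942 and in Ler from 7077 to 3762. For the non-additivity, 892 calls became 0 in that setting and 1513 with DESeq2, and for the asil2-2 change minus the asil2-1 change 4437 became 2020. Depth limits WRKY38, WRKY62 and NIMIN1, whose Ler libraries hold 0 or 1 count.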

Other observations

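Of 5 salicylate breakdown and conjugation genes, 3 rose in the libraries labelled asil1-1 asil2-2 against Ler, where 14.8% of all loci rose, among them DMR6, which hydroxylates salicylate, by 2.35 ± 0.30 on the log2 scale (adjusted p = 1.61e-05) and UGT76B1, a glucosyltransferase, by 2.17 ± 0.46 (adjusted p = 0.00158), and 4 rose against the libraries labelled asil2-2, where 13.4% of all loci rose. Against Col-0, 1 of the 5 rose, near the 16.7% of all loci. DMR6 was at 15.4, 11.5 and 9.32 CPM in Ler, at 35.9, 30.1 and 38.4 in the libraries labelled asil2-2 and at 65.7, 49.6 and 64.8 in those labelled asil1-1 asil2-2. In Ler against Col-0, 3 of the 5 fell, where 18.3% of all loci fell.

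Of 5 defence genes that answer to jasmonate and ethylene, 3 fell in the libraries labelled asil1-1 asil2-1 against Col-0, where 18.8% of all loci fell, with the chitinase PR3 at -2.88 ± 0.48 (adjusted p = 0.000293), PR4 at -1.86 ± 0.39 (adjusted p = 0.00161) and the defensin PDF1.2B at -2.65 ± 0.85 (adjusted p = 0.0198). Of the same 5, 4 rose in the libraries labelled asil1-1 asil2-2 against Ler, where 14.8% of all loci rose, including PR3 at 1.79 ± 0.49 (adjusted p = 0.0124), PR4 at 1.35 ± 0.37 (adjusted p = 0.013) and PDF1.2A at 3.79 ± 0.83 (adjusted p = 0.00313). These 2 comparisons have different references, and the difference between them was not tested. PDF1.2A was at 10.3, 81.3 and 98.1 CPM in the libraries labelled asil1-1 asil2-2 against 10.9, 1.005 and 5.14 in Ler. Its replicate 1 thus lay within the Ler range, and that library was the lowest of its group for 5 of the 5 genes. Against Col-0, 3 of the 5 rose and PR3 fell in the libraries labelled asil1-1 asil2-2, PR3 by 1.31 ± 0.44 (adjusted p = 0.0318), at 15.0 to 20.8 CPM against 21.3 to 62.6. Root markers fell in 6 of 13 in the first comparison and in 1 of 13 in the second, and their part was not tested.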
